A study of Nicotiana benthamiana with 12 samples.

Results

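In seedlings of the pent1 line of Nicotiana benthamiana, a laboratory relative of tobacco, 174 genes had transcripts well below the wild type level, both without and with the hormone abscisic acid (ABA), and yet gave reads in pent1. They were chosen on CPM, the count of a gene scaled to a library total of 1000000. A gene was included when log2 of the mean CPM plus 0.5 was at least 1.5 lower in pent1 than in wild type (WT) under mock and again under ABA, and when its counts summed over the 6 pent1 libraries were above 6. The 174 members were 0.380% of the 45796 gene IDs in the count tables and 0.418% of the 41657 IDs with at least 1 count. Another 43 genes met the same differences with 6 or fewer counts in pent1 and were not included.

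Whole seedlings of the LAB strain, WT or pent1, were moved from plates to liquid medium 10 days after germination and cultured there for 10 days. The medium was then renewed with 0.1% DMSO (mock) or with 10 µM ABA, and seedlings were taken after 3 h. Each of the 4 groups (WT mock, WT ABA, pent1 mock and pent1 ABA) had 3 libraries, described as independent biological replicates. Which gene is altered in pent1, and how many lines stand behind the label, the sources used here do not say. The files do not pair gene IDs with names or products, so members are given by ID, the tissue could not be checked against marker genes, and no sequence is shown.

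ABA is the hormone through which plants respond to drought and hold seeds dormant. It binds receptors of the PYR/PYL family, which then inhibit PP2C phosphatases, and this frees SnRK2 kinases to act on transcription factors of the ABF family and on other targets. In seedlings the outcome includes both induction and repression of many transcripts within hours. N. benthamiana is an allotetraploid, so many genes have a closely similar copy, and reads of one copy may have been counted for the other.

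Total counts were 18199288 to 18758918 per WT library and 19371555 to 19678708 per pent1 library. Replicates varied beyond counting error in the 12 pairs of libraries within groups, and more so in pent1. Chi-square divided by its degrees of freedom was 2.03 to 4.61 in WT pairs and 6.64 to 16.5 in pent1 pairs. Each genotype had its own count table, so genotype and any difference between the tables cannot be told apart. WT ABA replicate 3 stood apart from the other WT ABA libraries in 32 of the members, as described further on, and 168 genes, 165 of them members, met the choice without it. In RNA from whole seedlings, fewer cells of a type and less RNA per cell cannot be told apart.

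Members kept a median of 10.6% of their WT level under mock and 11.5% under ABA, and they ranged from almost no reads up to 34.1%. These differences chose the members and are a description with no test. Taken as the mean CPM in pent1 over the mean CPM in WT, the quartiles were 4.16% and 23.3% under mock, with a highest value of 33.1%. Under ABA the quartiles were 5.31% and 22.2%.

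Counted in steps, 52 members kept less than 5% of the WT level under mock, 29 kept 5 to 10%, 39 kept 10 to 20%, 39 kept 20 to 30% and 15 kept 30% or more. Under ABA the same steps held 39, 44, 41, 36 and 14 members. In 1 member no read was counted in the pent1 mock libraries, and under ABA every member had reads in pent1. On the log2 scale used for the choice, the median difference between pent1 and WT was -2.16 under mock and -2.20 under ABA, and the lowest values were -4.90 and -5.05. In 33 members under mock and 39 under ABA the difference was -3 or lower.

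**Figure D1:**
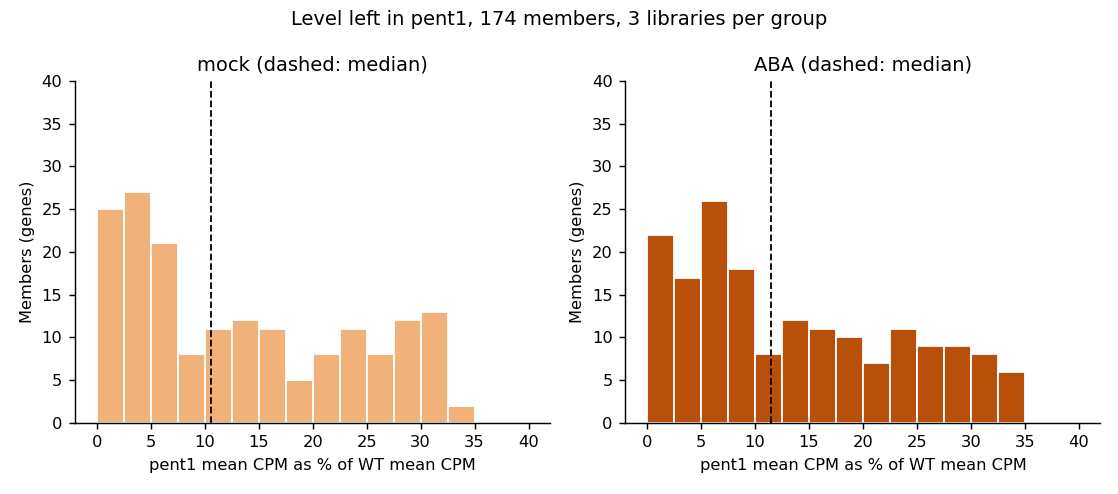
Remaining level of the 174 members in pent1, as the percent of the mean WT CPM on the x axis, under mock and under ABA, with the number of members on the y axis and a dashed line at the median. The medians were 10.6% under mock and 11.5% under ABA, and no member exceeded 34.1%.

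Most members were genes of low or middling counts. The median of the members' mean CPM was 8.10 in WT mock and 8.81 in WT ABA, against 0.718 and 0.869 in pent1. In reads, the median count of a member in a library was 148.5 in WT mock and 164 in WT ABA, and it was 16 and 17 in the pent1 groups. Over the 6 pent1 libraries together a member had between 7 and 39445 counts, with a median of 91, and 53 members had 30 or fewer. For these 53 the remaining level rests on few reads.

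In every one of the 174 members all pent1 libraries lay below all WT libraries under mock, and the same held under ABA. Among all genes with a count in the comparison, 17.9% had all pent1 libraries below all WT libraries under mock and 20.7% under ABA. The choice used these contrasts, so nothing is read from the members' count.

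Together the members held 9654 ± 116 CPM in WT mock and 9437 ± 545 CPM in WT ABA (SD, n = 3 libraries each). In pent1 their sum was 2104 ± 59.3 CPM under mock and 1936 ± 118 CPM under ABA. The 3 members with the most counts accounted for 44.9% to 48.3% of the sum in each library. Without them the sums were 5051 ± 92.6 and 5161 ± 327 CPM in WT and 1092 ± 27.7 and 1047 ± 73.3 CPM in pent1, under mock and ABA in turn. The 3 members therefore set much of the total, and the difference between genotypes was of like size without them.

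The member with the most counts, NbL05g08850, had 2005, 2139 and 2023 CPM in the 3 WT mock libraries and 1892, 1979 and 2111 CPM under ABA. In pent1 it had 354, 329 and 317 CPM under mock and 289, 319 and 290 CPM under ABA. All pent1 libraries lay far below all WT libraries, at 16.2% of the WT mean under mock and 15.0% under ABA, and the ABA and mock libraries of WT overlapped. This gene remained well expressed in pent1, at a mean of 333 ± 19.2 CPM under mock (SD, n = 3).

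NbL15g20100, the next by counts, had 1523, 1556 and 1452 CPM in WT mock and 1250, 1290 and 1343 CPM in WT ABA. Its pent1 values were 356, 316 and 334 CPM under mock and 274, 289 and 217 CPM under ABA. The groups did not overlap for genotype or for treatment, and pent1 kept 22.2% of the WT mean under mock and 20.1% under ABA. With ABA it was lower in WT (log2 fold change -0.21, SE 0.079, adjusted p = 0.0427 from edgeR's quasi-likelihood fit after Benjamini-Hochberg), and in pent1 the log2 fold change of -0.28 did not pass (adjusted p = 0.221).

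At the threshold itself the choice is a line through a continuum. Just inside it, NbL01g05100 had differences of -1.83 under mock and -1.502 under ABA, and NbL06g20000 had -1.503 and -1.58. Just outside, NbL14g15680 had -1.49 and -1.52, and NbL01g08540 had -1.49 and -2.18. Within 0.1 of the threshold lay 23 members on the inside and 34 genes on the outside. By counts, 21 members had 7 to 12 counts over the pent1 libraries.

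The reduction also appeared in libraries that had no part in the choice. Genes were chosen on 2 replicates of every group and the difference was read in the replicate left out. Without replicate 1, 174 genes were chosen, 155 of them members, and in replicate 1 their median difference was -2.09 under mock and -2.12 under ABA. Without replicate 2, 153 genes were chosen, and the medians in replicate 2 were -2.14 and -2.04. Without replicate 3 the choice gave 149 genes, with medians of -2.31 and -2.49 in replicate 3.

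In the replicate left out, pent1 was lower than WT in all chosen genes except 1, which under ABA in replicate 1 was not. The difference again reached -1.5 in 147, 139 and 133 genes under mock and in 161, 134 and 141 genes under ABA, for replicates 1, 2 and 3 left out. These libraries come from the same 2 genotypes and tables, so they bear on the spread between replicates alone.

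The difference between the genotypes under mock and under ABA can be set side by side for each member, although a choice on both favours differences of like size. Across the 174 members Pearson r between the 2 differences was 0.897 and Spearman rho 0.810, a description across genes whose range is cut by the choice on both axes. The difference under ABA minus that under mock had a median of -0.04 on the log2 scale and quartiles of -0.28 and 0.14. It lay within 0.25 of 0 in 96 members, within 0.5 in 143 and within 1 in 171. It was positive in 79 members and negative in 95.

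**Figure D2:**
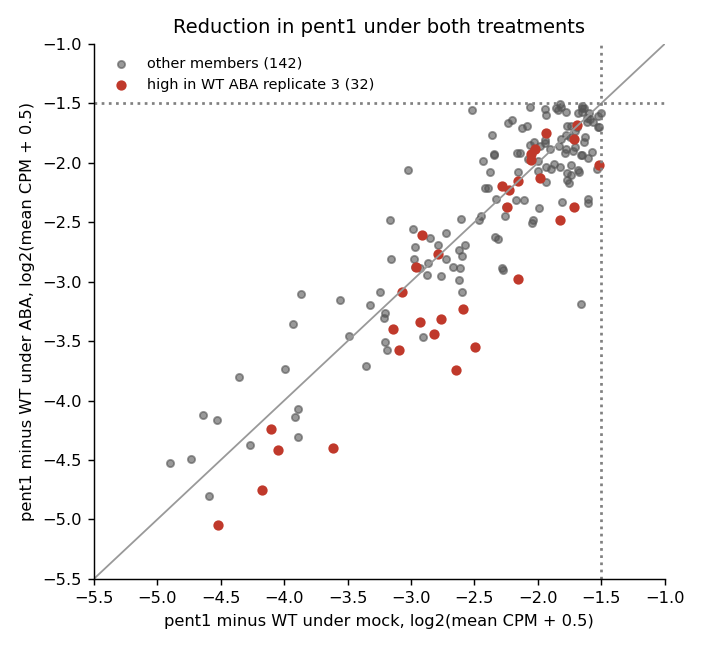
Difference of pent1 from WT in log2(mean CPM + 0.5) under mock (x axis) and under ABA (y axis), with each member as a point, dotted lines at the choice of -1.5, a diagonal of equal differences, and in red the 32 members that were high in WT ABA replicate 3. Of the 174 members, 143 lay within 0.5 of equal differences.

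Genes reduced by the same size under a single treatment formed smaller groups, with 45 under mock alone and 95 under ABA alone. Members were 79.5% of the 219 counted genes that were reduced under mock and 64.7% of the 269 reduced under ABA. In the opposite direction, 66 genes were higher in pent1 by the same size under both treatments. No minimum was set on their counts, whereas the reduced groups needed more than 6 counts in pent1, so the numbers are not like for like.

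The comparison of ABA with mock within a genotype asked whether transcripts that were reduced in pent1 still answered the hormone. This contrast was not part of the choice, although it uses the same libraries. In WT all 174 members were tested with edgeR (quasi-likelihood), and p was adjusted by Benjamini-Hochberg over all 33170 genes in that test. With ABA 34 members (19.5%) rose and 18 (10.3%) fell at an adjusted p under 0.05, and the other 122 did not pass. Without WT ABA replicate 3, 32 rose and 19 fell, of which 28 and 17 were the same members. Over all genes tested 36.0% changed, 18.6% being higher and 17.5% lower. With DESeq2 32 members rose and 13 fell, and over all genes with a count in WT 12.6% were higher and 9.29% lower. That share includes genes too low for a call, which the edgeR share leaves out. The backgrounds are therefore over unlike sets of genes, and no difference from either is read.

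Most responses of members in WT were small. The median log2 fold change was 0.13 over the members and -0.02 over all genes tested. Among members that rose the median was 0.63, and among those that fell it was -0.58. Of the 174 members tested, 9 were called and rose by 2-fold or more, and 2 were called and fell as much. Over all genes tested these shares were 4.95% and 2.25%. The median SE of a member's log2 fold change was 0.157, against 0.108 over all genes tested.

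In pent1 101 members had enough counts for the test, and the other 73 did not pass the filter on low counts. Of the 101, 15 (14.9%) rose with ABA, 3 (2.97%) fell and 83 did not pass the test. Over all 33197 genes tested in pent1 11.1% changed, 7.24% being higher and 3.84% lower. The members tested are those with the higher counts in pent1, so these counts do not speak for all 174. Their median log2 fold change was 0.09, against -0.01 over all genes tested, and the median SE was 0.215 against 0.152.

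Members that rose in pent1 did so by a median log2 fold change of 1.08, and 9 of the 15 rose by 2-fold or more. These 9 were among 101 members tested, and over all genes tested in pent1 3.05% were called and rose as much. In WT, 12 of these 15 rose too. The other 3, NbL04g13480, NbL16g24900 and NbL17g24200, named after their values were seen, had positive log2 fold changes in WT of 0.31, 1.14 and 0.80 at adjusted p of 0.330, 0.0558 and 0.0606 by edgeR. All 3 members that fell in pent1 fell in WT as well. Of the members called in WT and tested in pent1, 13 that rose and 10 that fell were not called in pent1. A call in WT and none in pent1 does not show that the responses differ, and that difference was not tested because the choice used the contrasts it is made of.

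The responses of the 101 members tested in both genotypes are set side by side as a description. The choice required a reduction under both treatments and so favours genes with like responses, and nothing is read from how close they are. The log2 fold change in pent1 minus that in WT had a median of 0.03, with quartiles of -0.22 and 0.38, and it lay within 0.5 of 0 in 76 members and within 1 in 96. Among the 25 that rose in WT, 21 had a positive value in pent1, with medians of 0.58 in WT and 0.84 in pent1. Among the 13 that fell in WT, 9 had a negative value in pent1, with medians of -0.55 and -0.28. All 15 that rose in pent1 had a positive value in WT.

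As a description across these 101 genes, Pearson r between the ABA log2 fold changes of WT and pent1 was 0.861 and Spearman rho 0.593. The 2 members with the largest responses carried part of the former, which was 0.708 without them. On the scale of log2(mean CPM + 0.5) r was 0.760 and rho 0.542 over the 174 members, against 0.748 and 0.435 over all 33155 genes with at least 10 mean counts.

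**Figure D3:**
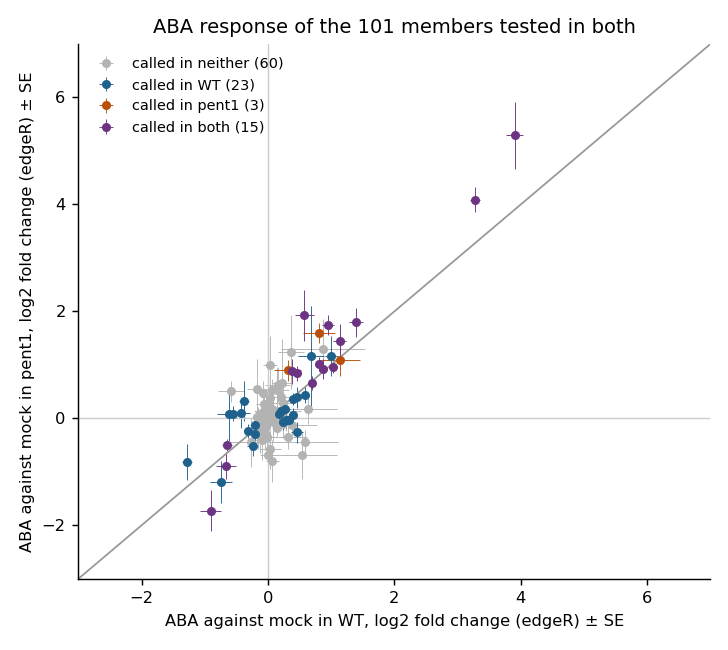
Log2 fold change of ABA against mock in WT (x axis) and pent1 (y axis) for the 101 members tested in both genotypes, with bars of 1 SE, a diagonal of equal responses and colours for the genotype in which edgeR called them. The 12 members that rose in both genotypes lie at the upper right and the 3 that fell in both at the lower left.

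The strongest ABA response among members was that of NbL14g07120. Its WT levels were 1.21, 1.24 and 1.12 CPM under mock and 16.2, 18.6 and 18.4 CPM under ABA. The pent1 libraries had 0.0511, 0 and 0.0511 CPM under mock and 2.19, 1.07 and 1.24 CPM under ABA. It was thus nearly absent in pent1 mock, and with ABA reached a level near that of untreated WT.

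The log2 fold change of NbL14g07120 with ABA was 3.90 in WT (SE 0.14, edgeR adjusted p = 8.99e-15) and 5.29 in pent1 (SE 0.63, adjusted p = 9.50e-05). In pent1 its counts went from 2 to 88 over 3 libraries each, a ratio in CPM of 43.9 with a 95% interval of 11.8 to 367.8 that covers counting error alone. In WT they went from 66 to 979, a ratio of 14.9 with an interval of 11.6 to 19.4. The fold in pent1 rests on 2 counts under mock. On the scale of log2(mean CPM + 0.5) the response was instead 1.53 smaller in pent1, because the added 0.5 exceeds the pent1 mock level.

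NbL09g15130 behaved in a like manner with more reads. WT had 6.70, 6.94 and 6.73 CPM under mock and 62.7, 68.1 and 64.9 CPM under ABA, while pent1 had 0.715, 0.723 and 0.664 CPM under mock and 14.2, 9.98 and 9.80 CPM under ABA. All ABA libraries lay above all mock libraries within a genotype, and pent1 under ABA lay above WT under mock. The rise was 9.60-fold in WT (log2 fold change 3.27, SE 0.08, edgeR adjusted p = 1.89e-17) and 16.2-fold in pent1 (4.09, SE 0.23, adjusted p = 1.38e-07). Its remaining level was 10.3% of WT under mock and 17.4% under ABA.

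NbL15g00740, which also rose in both genotypes, had 8.02, 8.02 and 5.98 CPM in WT mock and 20.5, 17.5 and 19.3 CPM in WT ABA. Its pent1 levels were 1.12, 0.826 and 1.84 CPM under mock and 4.62, 4.28 and 3.56 CPM under ABA. The groups did not overlap. It rose 2.60-fold in WT (log2 fold change 1.39, SE 0.11, edgeR adjusted p = 4.00e-09) and 3.29-fold in pent1 (1.79, SE 0.27, adjusted p = 0.000618).

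Of the members that fell in WT, NbL11g19730 had the largest change. It went from 9.56, 8.99 and 8.34 CPM under mock to 1.64, 1.97 and 1.76 CPM under ABA, a log2 fold change of -2.31 (SE 0.15, edgeR adjusted p = 9.12e-11). In pent1 it stood at 0.919, 0.465 and 0.613 CPM under mock and 0.0508, 0.102 and 0 CPM under ABA. The ABA libraries of pent1 all lay below its mock libraries, at too few counts to pass the filter for the test.

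NbL15g09730 had 541, 598 and 562 CPM in WT mock and 222, 221 and 248 CPM in WT ABA (log2 fold change -1.29, SE 0.08, edgeR adjusted p = 4.44e-11). In pent1 it had 152, 115 and 132 CPM under mock and 104, 71.8 and 37.0 CPM under ABA, again without overlap. The pent1 ABA libraries were spread widely, and the log2 fold change of -0.82 (SE 0.33) did not pass (adjusted p = 0.195).

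The 3 members that fell in both genotypes were NbL01g01710, NbL07g13410 and NbL14g08310, the last of them named after its values were seen. NbL01g01710 had 669, 588 and 557 CPM in WT mock, 396, 375 and 379 CPM in WT ABA, 206, 186 and 186 CPM in pent1 mock and 127, 139 and 119 CPM in pent1 ABA. With ABA its log2 fold change was -0.65 in WT (SE 0.08, edgeR adjusted p = 1.09e-06) and -0.50 in pent1 (SE 0.12, adjusted p = 0.0140). It had one of the highest remaining levels, 31.9% of WT under mock and 33.5% under ABA.

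NbL07g13410 had 16.0, 16.8 and 21.4 CPM in WT mock and 12.8, 8.74 and 12.5 CPM in WT ABA (log2 fold change -0.66, SE 0.16, edgeR adjusted p = 0.00691). In pent1 it had 3.01, 2.32 and 2.504 CPM under mock and 1.02, 1.22 and 1.75 CPM under ABA (-0.88, SE 0.25, adjusted p = 0.0397). Mock and ABA libraries did not overlap in either genotype. The pent1 call was lost with DESeq2 (adjusted p = 0.080) and when a pent1 library was left out, namely mock replicate 1, 2 or 3 (adjusted p = 0.149, 0.0676 and 0.0978) or ABA replicate 1 or 2 (0.152 and 0.149). For NbL14g08310 the log2 fold change was -0.91 in WT (adjusted p = 0.000225) and -1.73 in pent1 (adjusted p = 0.0101), at mean levels of 1.21 ± 0.277 CPM in pent1 mock and 0.340 ± 0.145 CPM in pent1 ABA.

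**Figure D4:**
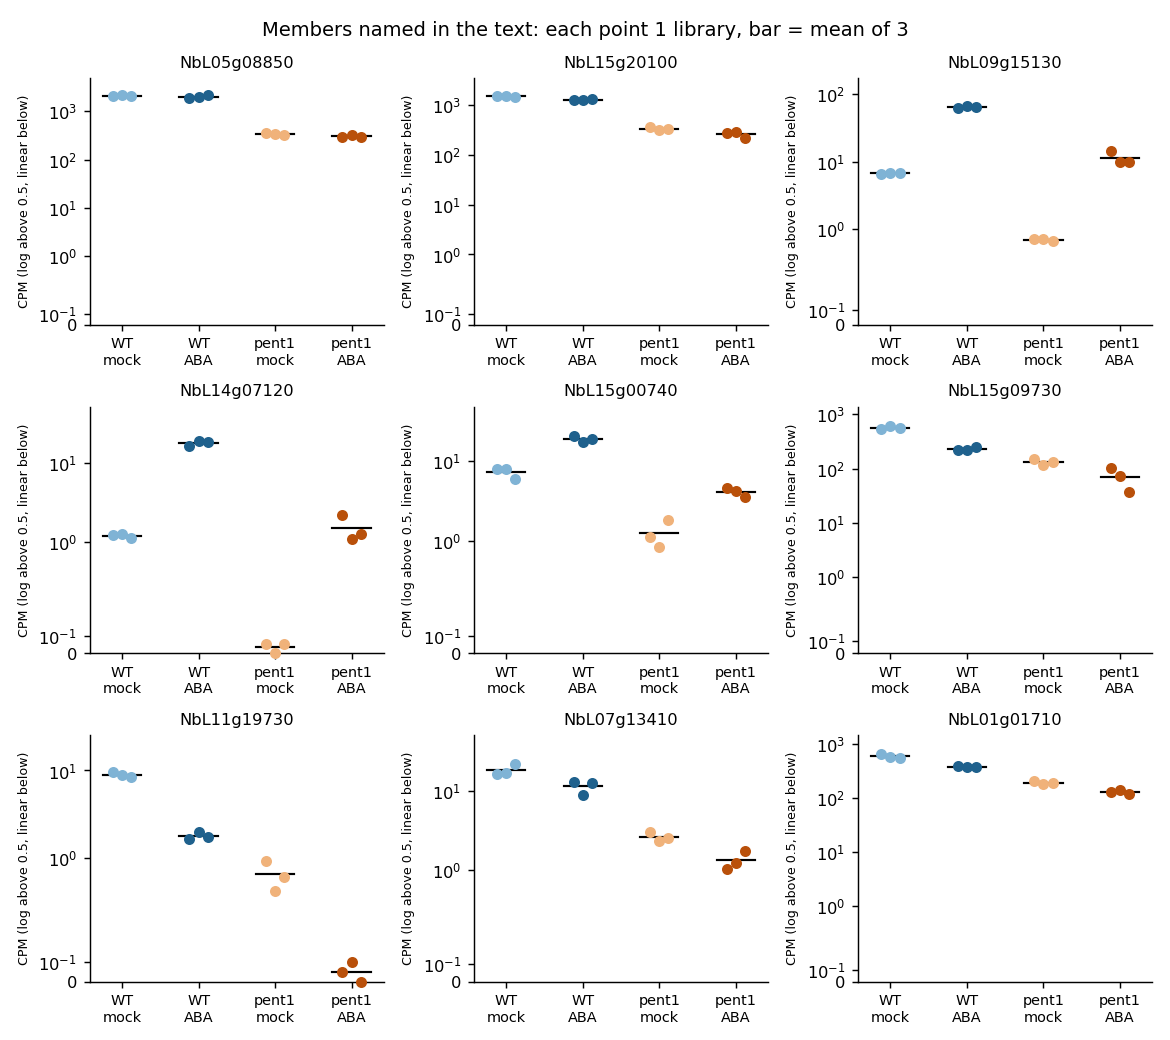
CPM of 9 named members in the 12 libraries by group, with points for libraries and bars for means, on an axis that is logarithmic above 0.5 CPM and linear below. In each panel the pent1 libraries lie below the WT libraries of the same treatment.

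The largest positive difference of responses belonged to NbL06g16710, by 0.97 on the scale of log2(mean CPM + 0.5). It had 34.6, 27.7 and 36.3 CPM in WT mock and 23.6, 26.6 and 15.2 CPM in WT ABA, against 7.15, 5.21 and 3.58 CPM in pent1 mock and 6.91, 7.74 and 6.60 CPM in pent1 ABA. The ABA libraries of WT lay below the mock libraries, and those of pent1 overlapped with mock. Neither response passed edgeR's test, with an adjusted p of 0.083 in WT and 0.126 in pent1.

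Members varied more between replicates than genes at large. The median SD of log2(CPM + 0.5) over the 3 libraries of a group, among those with at least 1 CPM, was 0.149 for members in WT mock and 0.187 in WT ABA, against 0.103 and 0.108 for all genes. In pent1 the medians were 0.198 and 0.215 for members and 0.153 and 0.167 for all genes. An SD above 0.5 was found in 24 of 174 members in WT ABA and 3 of 174 in WT mock. In pent1 it was found in 5 of 84 under mock and 7 of 85 under ABA. The share of all genes above 0.5 was not computed. Members have fewer counts than many genes, and the part of counting error in these spreads was not tested.

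A single library of WT ABA stood apart in part of the members, and how far it accounts for the spread in that group was not tested. In WT ABA replicate 3, 32 of the 174 members (18.4%) were at least 1.5-fold above both other WT ABA libraries, whereas 0.507% of the 30939 genes compared were. In the other 11 libraries the corresponding share was 0 to 8.33% of members and 0.269% to 2.39% of genes. Shares are over those with a mean of at least 1 CPM in the group. These were 174 members in each WT group, 84 in pent1 mock and 85 in pent1 ABA. This pattern and its 1.5-fold limit were chosen after the data were seen. Relative to the mean of the other WT ABA libraries these 32 members had a median of 2.19-fold in replicate 3, and the other 142 members a median of 1.05-fold.

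Replicates of other groups also differed in these 32 members. Their summed level was 288, 350.5 and 248 CPM in WT mock and 299.6, 273 and 648 CPM in WT ABA, and in pent1 it was 27.3, 33.97 and 23.5 CPM under mock and 24.1, 28.4 and 24.5 CPM under ABA. In WT mock 27 of the 32 were highest in replicate 2, against 41 of the other 142, and in pent1 mock 25 were highest in replicate 2, against 62 of the other 142. In pent1 ABA the 32 were split over replicates 1, 2 and 3 as 6, 16 and 10. NbL12g06450, the 1 with the most counts and named after its values were seen, had 52.0, 60.4 and 44.8 CPM in WT mock and 57.7, 52.7 and 129 CPM in WT ABA. The pent1 levels were 1.28, 2.48 and 1.64 CPM under mock and 2.03, 2.24 and 1.496 CPM under ABA, a remaining level of 3.43% and 2.41%.

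These 32 members kept a median of 3.24% of the WT level under mock, against 13.2% in the other 142, and single members of the 32 kept up to 27.5%. Under ABA the medians were 4.95% and 14.6%, where the high WT ABA replicate 3 that chose the 32 enters the WT mean and lowers their value. None of them was called for ABA in WT, 7 were tested in pent1 without a call and 25 were not tested there. Leaving out WT ABA replicate 3 kept 29 of the 32 as members. Of all 157 genes that were high in that library, 50 (31.8%) were at least 1.5 lower in pent1 under mock on the log2 scale. Over all genes compared this share was 0.827%. Of the 50, 32 are the members themselves, so this gives no separate support. The rest of the 50 had 6 or fewer counts over the 6 pent1 libraries, so the pattern was not particular to members. What sets these genes and this library apart was not tested.

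**Figure D5:**
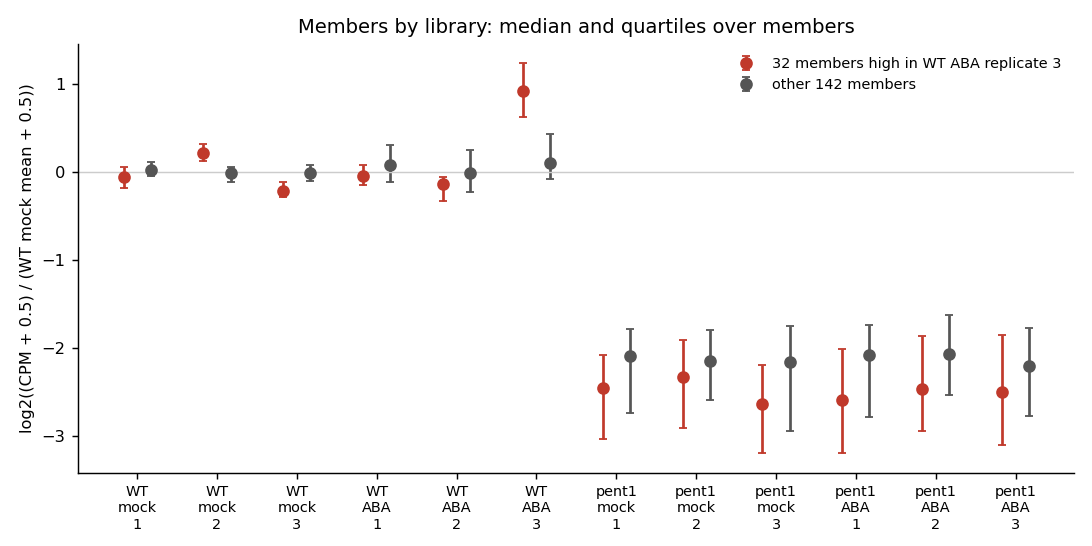
Log2 of CPM + 0.5 relative to the WT mock mean + 0.5 (y axis) in each of the 12 libraries (x axis), for the 32 members that were high in WT ABA replicate 3 and the other 142, with points for the median and bars for the quartiles over members. The 32 members stand out in WT ABA replicate 3, which chose them, and all pent1 libraries lie far below WT.

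Few members had adjacent IDs, and whether their placement departs from an even spread over the IDs was not tested. An ID has 2 digits after NbL, whose meaning the files do not state, and all 20 of these numbers held members, from 1 to 14 each. As a share of counted genes this was 0.0821% for the number 02 and 0.612% for the number 15. There were 3 pairs of members with adjacent IDs, the first being NbL05g10410 and NbL05g10420, and no longer run. Any stretch of 50 consecutive IDs held at most 3 members.

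Genes with IDs next to a member, with members themselves left out, were mostly not reduced. The 237 neighbours with at least 10 mean counts had a median difference of 0.02 under mock and -0.01 under ABA. Of them 4 (1.69%) were at -1 or lower under each treatment, against 1.78% of all genes under mock and 2.20% under ABA. The shares of all genes include the members, which the neighbours leave out by construction. The sets are therefore unlike, and nothing is read from the comparison.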

How the data were processed

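RNA of whole seedlings was measured in 12 libraries. The authors deposited raw counts of reads for each gene ID, in a separate table for each genotype. The mRNA kit kept strand, per the labels' protocols. FastQC, cutadapt, STAR and DESeq2 were used, per the submitters' processing notes. The counter, genome build, annotation, use of strand in counting and handling of reads with several matches were not given in the sources used here.

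The tables were joined by gene ID, and levels are CPM by column total. ABA was compared with mock on the 6 libraries of each genotype with the quasi-likelihood test of edgeR 4.0.16 (R 4.3.3, robust dispersion, TMM, filterByExpr with its count minimum at 10). Adjustment was by Benjamini-Hochberg over all genes tested, at a threshold of 0.05. Fold changes are ABA over mock, and SEs are those implied by the F statistic. The test was tried on simulated data. Genotype contrasts chose the members and were not tested.

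The members, lists and alternatives were chosen with earlier results of these data known. Named genes are the 2 members with the most counts, up to 2 highest and 2 lowest called members per ABA comparison (average log2 CPM of at least 0, no overlap between groups), the 2 genes on each side of the threshold, the largest differences of responses and the longest run of IDs. Lists of plant genes by product were not used, since no table used here names the IDs. Alternatives were other thresholds, pseudocounts and scalings, DESeq2 1.42.0, no filter, all 12 libraries, a replicate block and leaving out each library. Intervals cover counting error alone.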

Additional observations from a re-analysis of the deposited data

Results flagged for a closer look

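NbL08g09620, found by a search over all members for opposite moves, is set apart because its ABA and mock libraries did not overlap in either genotype and moved in opposite directions. In WT it had 18.5, 18.7 and 20.0 CPM under mock and 20.6, 21.6 and 20.4 CPM under ABA. In pent1 it had 5.92, 5.32 and 4.91 CPM under mock and 4.62, 4.73 and 4.13 CPM under ABA. The response in pent1 minus that in WT was -0.3638 on the scale of log2(mean CPM + 0.5), and this difference was not tested. Neither response passed edgeR's test (log2 fold change 0.14, SE 0.07, adjusted p = 0.150 in WT and -0.17, SE 0.15, adjusted p = 0.542 in pent1). For comparison, 30 members moved in the same direction without overlap in both genotypes. The shares of all genes that moved in these ways were not computed, so nothing is read from these counts.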

How the results depend on the processing

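The number of members was 398 with a difference of at most -1, 85 with at most -2 and 266 with a pseudocount of 0.1 CPM, against 174. It was 158 to 177 when single libraries were left out. The median difference in replicates left out of the choice was -2.31 to -2.09 under mock and -2.49 to -2.04 under ABA. Over the alternatives, 25 to 37 members rose and 12 to 21 fell with ABA in WT, and 11 to 20 rose in pent1. Over all genes of each fit, 12.6% to 19.3% rose and 9.29% to 24.2% fell in WT, and 5.05% to 10.8% rose in pent1. The 3 members that fell in pent1, of 101 tested, became 5 with no filter and 8 in the fit on all 12 libraries, each with 174 tested. The share of all genes that fell was 3.84%, 3.46% and 7.41% in turn. Leaving out single libraries gave 1 to 6, with 1 without pent1 mock replicate 3 and 6 without pent1 ABA replicate 3. In these last settings 2.30% and 7.99% of all genes fell. Why these counts moved was not tested. The number of members high in WT ABA replicate 3 was 53 at 1.3-fold and 15 at 2-fold, of 174. Over all genes compared, 1.54% and 0.100% were high at these limits. With the replicate number as a block, 34 rose and 17 fell in WT, and 15 rose and 3 fell in pent1. Same-numbered mock and ABA libraries showed little shared deviation (correlations of 0.055, -0.039 and 0.038 in WT and -0.062, -0.022 and 0.102 in pent1). Libraries of unlike number reached 0.181 and -0.132 in pent1. These values cannot show whether the samples were paired by number. Members with few pent1 counts limit what the pent1 test could call, and pent1 replicates also varied more. The spread between replicates estimated by edgeR, as a coefficient of variation, was 0.129 in pent1 and 0.063 in WT.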
